A study of Gossypium barbadense and Gossypium hirsutum with 8 samples.

Results

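On the Affymetrix cotton array, 36 probe sets have identifiers that begin with GbaAffx, the mark of probes drawn from Gossypium barbadense sequence, among 24029 probe sets other than Affymetrix controls. They were selected by that identifier alone, with no filter on signal. Their signals were followed in cotton fibre at 10 days post anthesis on 8 arrays. The parents were SG747, a high-yielding G. hirsutum line, and Giza75, a low-yielding G. barbadense line, with 1 array each. The other arrays were 3 high-yielding lines (HY1, HY2 and HY3) and 3 low-yielding lines (LY1, LY2 and LY3), all backcross inbred lines (BILs) from a population between the 2 species, with 1 array per line. LY1, LY2 and LY3 are NMGA066, NMGA095 and NMGA023, and HY2 is NMGA017. For HY1 and HY3 the sample labels give NMGA144 and NMGA026, while the series' design text gives these names the other way round. The labels list several field sites and do not say which one the fibre came from.

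Cotton fibres are single cells that grow out of the epidermis of the ovule, and at this age they elongate fast while making primary wall. G. hirsutum, upland cotton, is grown for its yield, and G. barbadense for its long and fine fibre. Both are tetraploids that carry an A and a D subgenome, so most genes exist as closely related copies within a plant and between the species. Short array probes bind a transcript less well where the bases differ, so a signal depends on the match to a copy as well as on its amount. Probe sets ending in _at are designed to be unique, those ending in _s_at match several related transcripts, and those ending in _x_at hold some probes that can bind other transcripts. The files do not pair identifiers with genes, and 0 of them matched the 74561 genes of the reference table. The roles of these transcripts are therefore not given, and neither pathway genes nor fibre markers could be looked up.

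The 36 probe sets stand for 25 sequences, counting identifiers that differ only in the ending as 1 sequence. Of these, 17 have 1 probe set, 5 have 2 and 3 have 3. Probe sets of 1 sequence share their source and are not independent of each other. By ending, 11 are _at, 19 are _s_at and 6 are _x_at.

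The arrays differed in overall brightness, with median deposited signals from 13.2 to 36.3. Quantile normalization of the 24029 probe sets gave all arrays the same distribution, and levels below are log2(normalized signal + 16). The added 16 shrinks the differences of weak signals. With 1 array per line, the spread inside a group joins differences between lines, preparations and arrays, and p-values refer to that joint spread. In bulk fibre RNA, fewer cells of a kind and less RNA per cell cannot be told apart.

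Signals of the GbaAffx probe sets were mostly strong. Their median level lay at the 79.7th percentile of all probe sets, and 18 of 36 were in the brightest 20% of the array. Going down by further steps of 20%, 6, 5, 3 and 4 members followed. On single arrays their median normalized signal was 267 in SG747 and 237 in Giza75. In HY1, HY2 and HY3 it was 238, 133 and 199, and in LY1, LY2 and LY3 it was 140, 179 and 200.3. The median over all probe sets was 21.8 to 21.9 on each array. A normalized signal of 64 or more on all 8 arrays was found for 19 GbaAffx probe sets, and 24.9% of all probe sets reached it. A signal below 16 on all 8 arrays was found for 6 of them, against 29.0% of all.

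The strong signals were mainly those of the _s_at probe sets. Their 19 members had a median percentile of 91.5, where all 9290 _s_at probe sets of the array had 60.8. The 11 _at members had a median percentile of 51.9, and all 12727 _at probe sets had 42.7. The 69 probe sets drawn from G. arboreum sequence (GarAffx) also lay high, with a median percentile of 81.5. Signals of different probe sets depend on their probes, so these ranks are of brightness and not of transcript amount.

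**Figure D1:**
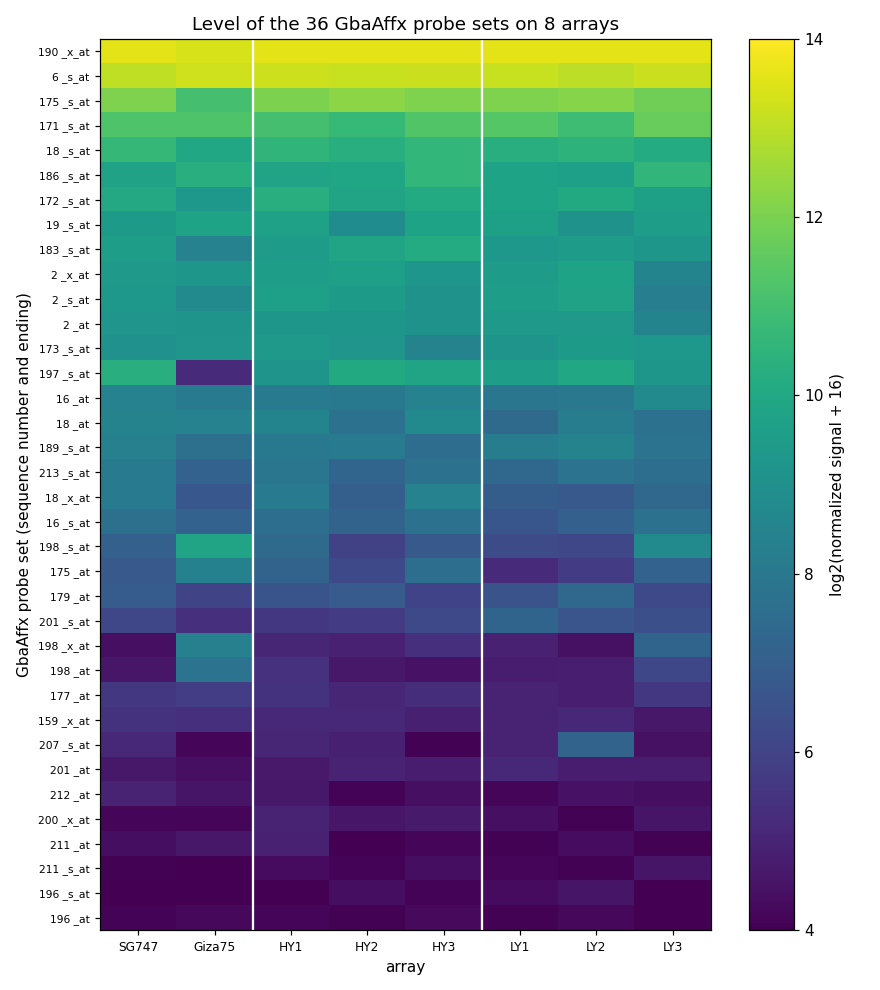
Heat map of the 36 GbaAffx probe sets (rows, by sequence number and ending, sorted by mean level) on the 8 arrays (columns). Colour is log2(normalized signal + 16), and white lines part the parents, the high-yield and the low-yield BILs. Most rows keep 1 colour across the arrays, while 197 _s_at is dark in Giza75 alone and the 3 rows of sequence 198 are brightest there and next brightest in LY3.

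Among the 5 members of highest mean level, GbaAffx.190.1.S1_x_at had deposited signals of 11576 in SG747 and 11475 in Giza75. In HY1, HY2 and HY3 it had 10839, 13829 and 11062, and in LY1, LY2 and LY3 it had 13003, 14833 and 10961. It held brightness rank 2 on every array but that of Giza75, where it held rank 6. Quantile normalization therefore set it to 12378 on those 7 arrays and to 10767 in Giza75. Its lack of spread between lines comes from that step.

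GbaAffx.6.1.S1_s_at had normalized signals of 8339 and 9819 in SG747 and Giza75. Its signals were 9562, 9018 and 9405 in HY1, HY2 and HY3 and 9157, 8209 and 9310 in LY1, LY2 and LY3. All 8 values lay close together, and Giza75 was the highest. GbaAffx.171.1.S1_s_at had 2406 in SG747 and 2401 in Giza75. In the lines it had 2113, 1667 and 2494 in HY1, HY2 and HY3 and 2617, 1867 and 3218 in LY1, LY2 and LY3. The signals of the parents were nearly equal here, and the lines lay on both sides of them. GbaAffx.18.1.S1_s_at had 1594 in SG747 and 987 in Giza75, and 1110 to 1578 in the 6 lines. The remaining one of the 5, GbaAffx.175.1.S1_s_at, is described with the parents.

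Between the single arrays of the parents, most probe sets drawn from G. barbadense sequence were not higher in the G. barbadense parent. The median difference, Giza75 minus SG747, was -0.09 on the log2 scale, against 0.00 for all probe sets, and 24 of the 36 (66.7%) lay below 0, against 50.2% of all. At least 2-fold higher in Giza75 were 4 GbaAffx probe sets (11.1%), where 6.11% of all probe sets were. At least 2-fold lower were 6 (16.7%), where 5.51% of all were. At 4-fold, 3 were higher and 1 was lower, and 0.828% and 0.891% of all probe sets lay so far apart. The parents have 1 array each, so none of these differences has an error estimate or a test.

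These counts and the median depend on the pseudocount and on the scaling of the arrays. With a pseudocount of 1 the members at least 2-fold higher were again 4, while 18.6% of all probe sets were, so the members' share was then below that of the array. Those at least 2-fold lower were then 8, where 17.8% of all were. With a pseudocount of 64 there were 4 on each side (2.67% and 2.22% of all). Without normalization 13 members were at least 2-fold lower and 4 higher in Giza75, where 13.2% and 2.76% of all probe sets were. With arrays centred on their medians 10 were lower and 4 higher (8.89% and 4.51% of all). The median difference was -0.27 with that centring (0.02 over all probe sets) and -0.49 without normalization (-0.20 over all). It was -0.16 with a pseudocount of 1 (-0.01 over all), and -0.20 both for the 29 members kept when the weakest 40% of all probe sets were left out (-0.03 over all probe sets kept) and with 1 value per sequence.

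Of the 6 lower probe sets, 5 end in _s_at and 1 in _x_at, where 5.34% of all _s_at and 7.90% of all _x_at probe sets were lower. None of the 11 _at members was 2-fold lower, a share near the 5.35% of all _at probe sets, and 2 of them were higher (5.10% of all _at). The 19 _s_at members had a median parental difference of -0.56, against 0.01 for all _s_at probe sets. The 11 _at members had -0.05, against -0.01 for all _at probe sets. For the 69 GarAffx probe sets the median was -0.03, with 11 (15.9%) at least 2-fold higher and 1 (1.45%) lower in Giza75. Whether the probes match both species equally was not tested.

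**Figure D2:**
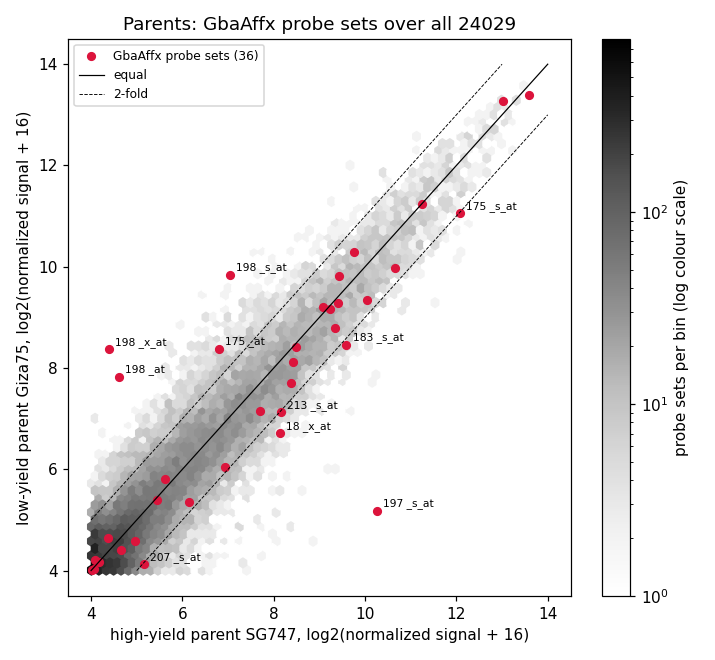
Level in Giza75 (y axis) against SG747 (x axis), both as log2(normalized signal + 16). Grey hexagons count all 24029 probe sets on a log colour scale, red points are the 36 GbaAffx probe sets, and dashed lines mark 2-fold. Labelled points are at least 2-fold apart: 4 above the upper line, from sequences 198 and 175, and 6 below the lower line, with 197 _s_at the farthest.

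All 3 probe sets of sequence 198 were higher in the G. barbadense parent. GbaAffx.198.1.S1_x_at had normalized signals of 5.02 in SG747 and 315 in Giza75. Its signals were 17.7, 14.3 and 26.2 in HY1, HY2 and HY3 and 14.4, 5.66 and 132 in LY1, LY2 and LY3. LY3 thus lay between the parents, well above the other 5 lines, which were nearer SG747. The parental difference was 3.98 on the log2 scale.

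GbaAffx.198.1.S1_at showed the same order, with 8.50 in SG747 and 210.0 in Giza75, a log2 difference of 3.21. It had 27.0, 8.96 and 6.34 in HY1, HY2 and HY3 and 11.0, 12.6 and 56.5 in LY1, LY2 and LY3. With pseudocounts of 1 and 64 the differences were 5.71 and 2.46 for _x_at and 4.47 and 1.92 for _at. The third probe set of the sequence, ending in _s_at and taken up after its values were seen, had 116 and 897 in the parents, a log2 difference of 2.78. In HY1, HY2 and HY3 it had 159, 46.6 and 94.1, and in LY1, LY2 and LY3 it had 61.2, 53.9 and 425. In all 3 probe sets LY3 was the highest line. LY3 was also the dimmest array, with a median deposited signal of 13.2 against 13.5 to 36.3 on the others. On the deposited values it was again the highest line, at 72.9 for _x_at, 31.0 for _at and 256 for _s_at, where the other lines had at most 22.0, 17.2 and 105. Across the 8 arrays the pairwise Pearson r between them was 0.92 to 0.93, and across the 6 lines 0.79 to 0.92, from the same arrays and overlapping design. By ranks (Spearman) over the 8 arrays, _x_at had lower values, 0.57 with _at and 0.69 with _s_at.

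**Figure D3:**
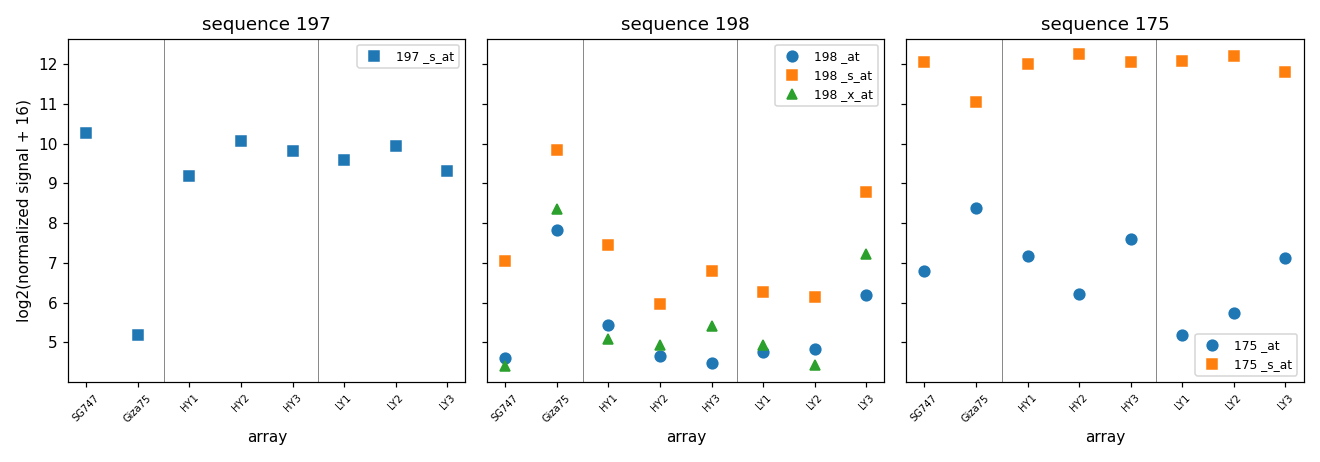
Level, log2(normalized signal + 16), on each of the 8 arrays for the probe sets of sequences 197, 198 and 175 (panels from left to right), with marker shapes for the endings; vertical lines part the parents, the high-yield and the low-yield BILs. In sequence 197 only Giza75 is low, in sequence 198 Giza75 and LY3 stand above the rest, and in sequence 175 the 2 probe sets lie in opposite order between the parents.

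The fourth higher probe set was GbaAffx.175.1.S1_at, also taken up after its values were seen, and its companion lay the other way. It had 94.8 in SG747 and 317 in Giza75, a log2 difference of 1.59. In the lines it had 128, 58.5 and 179 in HY1, HY2 and HY3 and 20.2, 37.4 and 124 in LY1, LY2 and LY3. The lines ranged widely and overlapped between the yield groups, and HY2, LY1 and LY2 were lower than either parent.

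GbaAffx.175.1.S1_s_at had 4292 in SG747 and 2109 in Giza75, a log2 difference of -1.02. Its signals were 4103, 4858 and 4237 in HY1, HY2 and HY3 and 4306, 4688 and 3601 in LY1, LY2 and LY3. All 6 lines were near SG747. Over the 8 arrays the 2 probe sets of this sequence had r = -0.73, and over the 6 lines r = -0.52.

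The largest parental difference of all 36 was that of GbaAffx.197.1.S1_s_at, which was low in the very species its sequence came from. It had 1215 in SG747 and 20.2 in Giza75, a log2 difference of -5.09. Every line was high, with 564, 1050 and 890 in HY1, HY2 and HY3 and 753, 972 and 620 in LY1, LY2 and LY3. None of the lines lay near Giza75, and the yield groups overlapped. Its deposited signals were 1518 and 15.9 in the parents and 384 to 1320 in the lines, so Giza75 was the lowest array before normalization too.

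GbaAffx.18.1.S1_x_at had 267 in SG747 and 88.6 in Giza75, a log2 difference of -1.43. Its signals were 252, 114 and 327 in HY1, HY2 and HY3 and 108, 93.5 and 152 in LY1, LY2 and LY3. HY1 and HY3 were at the level of SG747 and the other lines nearer Giza75. The companions of this sequence, ending in _s_at and _at, had parental log2 differences of -0.68 and -0.05, so the 3 shared a sign but not a size.

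Another 3 probe sets passed 2-fold on the lower side, at -1.14, -1.04 and -1.02 on the log2 scale. The first was GbaAffx.183.1.S1_s_at, described with the yield groups, and the second GbaAffx.207.1.S1_s_at, whose parents were both weak at 19.7 and 1.39. The third, GbaAffx.213.1.S1_s_at, was named after its values were seen and had 268 in SG747 and 124 in Giza75. These last 2 and the -1.02 of sequence 175 lie close to the threshold, and the nearest member short of it had -0.88.

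Of the 8 sequences with several probe sets, 5 had a signal of at least 64 on some array for each probe set. The 3 probe sets of sequence 2 went together, with r of 0.91 to 0.97 over 8 arrays and 0.98 over 6 lines. In all 3 of them LY3 was the lowest array, at 351, 295 and 347, where the other lines had at least 537, 529 and 594. Their parental log2 differences were -0.06, -0.54 and -0.11. The pair of sequence 16 had r = 0.84 over 8 arrays. The probe sets of sequence 18 had r of 0.51 to 0.76 over 8 arrays and 0.63 to 0.91 over 6 lines. The other 3 sequences, numbered 196, 201 and 211, held at least 1 probe set under 64 on every array, and their r values of -0.21 to 0.72 rest on weak signals.

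Each parent was also set against the 6 lines. Giza75 lay outside the range of the lines in 20 of 36 members (55.6%), where this held for 34.5% of all probe sets. It was below all 6 lines in 12 and above them in 8, against 3849 and 4432 of all 24029. SG747 lay outside in 10 (27.8%; 23.9% of all), above all lines in 6 and below them in 4, against 3257 and 2490 of all 24029. The median distance of a line from SG747, as the size of the log2 difference over the 36, was 0.22 to 0.45, and from Giza75 0.34 to 0.53. LY3 had the highest of the former, 0.45, against 0.50 from Giza75. Over all probe sets that line was nearer Giza75, at 0.32 against 0.37.

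For the 10 members at least 2-fold apart between the parents, each line was placed with the nearer parent. HY1 was nearer SG747 in 10 of 10. HY2, HY3 and LY1 were so in 8 of 10, and LY2 in 9 of 10. LY3 was so in 5 of 10. Over the 2790 probe sets as far apart, the shares were 76.9%, 77.2% and 75.2% in HY1, HY2 and HY3. In LY1, LY2 and LY3 they were 66.3%, 81.8% and 40.7%. LY3 had the lowest share in both. On the deposited values LY3 was nearer SG747 in 5 of 17 members and with median centring in 5 of 14. The shares over all probe sets in these settings are not given here. Median deposited signals were 13.2 in LY3, 17.0 in Giza75 and 22.3 in SG747. HY1 and HY3, with medians of 13.5 and 15.7, were each nearer SG747 in 11 of 17 on the deposited values. Whether array brightness shifts these counts was not tested.

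In the direction of the 4 members higher in the G. barbadense parent, LY3 was nearer that parent in 2 and HY3 in 1. The other 4 lines were so in 0 of 4. For the 6 lower in that parent, LY3 was nearer it in 3, HY2 and LY1 in 2 each, HY3 and LY2 in 1 each, and HY1 in 0. Over all probe sets at least 2-fold apart, LY3 was nearer Giza75 for 66.8% of those higher and 51.0% of those lower in it.

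The design's question was which transcripts differ between high-yielding and low-yielding lines, and none of the GbaAffx probe sets passed the test. In limma, 0 of 36 had an adjusted p under 0.05, and 0.0% of all probe sets did (lowest adjusted p among the 36, 0.988). At an unadjusted p under 0.05 there was 1 of 36 (2.78%), lower in the high-yield lines, where 3.24% of all probe sets were called in either direction, 1.46% higher and 1.78% lower. This count was 0 without HY1 (2.45% of all) or LY1 (1.68%), 2 without HY2 (6.03%) and 5 without LY3 (9.61%). On the deposited values it was 0, where 2.41% of all were called. With median centring it was 2, where 2.2% of all were. The 3 high-yield and 3 low-yield normalized values did not overlap for 3 members (8.33%), where 7.65% of all did not. The high-yield lines were above in 2 (4.63% of all) and below in 1 (3.02% of all). These shares are near those of the array. The median difference, high-yield minus low-yield lines, was 0.06 on the log2 scale over the 36 and 0.02 over all probe sets. The high-yield mean was the higher one in 22 members (61.1%), where it was so for 53.6% of all.

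The probe set with the unadjusted p under 0.05 was GbaAffx.201.1.S1_s_at. It had 33.3, 37.6 and 58.1 in HY1, HY2 and HY3 and 133, 84.2 and 69.8 in LY1, LY2 and LY3. The groups did not overlap, with means of 43.0 ± 13.3 (SD, n = 3) and 95.5 ± 32.9 (SD, n = 3). On the deposited values they did overlap, with HY2 at 47.2 and LY3 at 38.3. The log2 difference was -0.90 ± 0.35 (SE), with an unadjusted p of 0.0283 and an adjusted p of 0.988 in limma. With a pseudocount of 64 it was -0.56. The unadjusted p in limma was 0.0601 on the deposited values, 0.0999 without HY1, 0.0733 without HY2 and 0.126 without LY1. The parents, at 54.9 in SG747 and 25.1 in Giza75, were in the opposite order. Its companion ending in _at was weak, at most 19.6 on any array, and had a difference of -0.10.

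GbaAffx.183.1.S1_s_at had 727, 897 and 1110 in HY1, HY2 and HY3 and 630, 702 and 609 in LY1, LY2 and LY3. Here too the groups did not overlap, with means of 911 ± 192 (SD, n = 3) and 647 ± 48.5 (SD, n = 3). On the deposited values they did overlap, with HY1 at 525.5 below LY1 at 814.4 and LY2 at 976.3. The parents were in the same order, at 756 and 334. The log2 difference was 0.47 ± 0.26 (SE), with an adjusted p of 0.988 in limma. It was 0.20 on the deposited values.

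GbaAffx.200.1.S1_x_at was weak, with 15.0, 8.09 and 10.1 in HY1, HY2 and HY3 and 5.31, 0.82 and 7.67 in LY1, LY2 and LY3. These groups did not overlap, and both parents were lower than any high-yield line, at 2.03 and 1.89. On the deposited values HY3 and LY1 were equal, at 8.1. Its log2 difference of 0.40 ± 0.20 (SE) did not pass the test (limma, adjusted p = 0.988). It was 0.26 without LY2, and 1.34 and 0.13 with pseudocounts of 1 and 64.

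GbaAffx.207.1.S1_s_at had 17.7, 13.1 and 0.55 in HY1, HY2 and HY3 and 14.8, 130.3 and 6.11 in LY1, LY2 and LY3. The groups overlapped, and 1 array, LY2, was far above the rest. The log2 difference of -0.87 ± 0.63 (SE; limma, adjusted p = 0.988) was -0.04 without that line, -0.57 without HY3 and -1.41 without LY3. With pseudocounts of 1 and 64 it was -1.72 and -0.47.

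**Figure D4:**
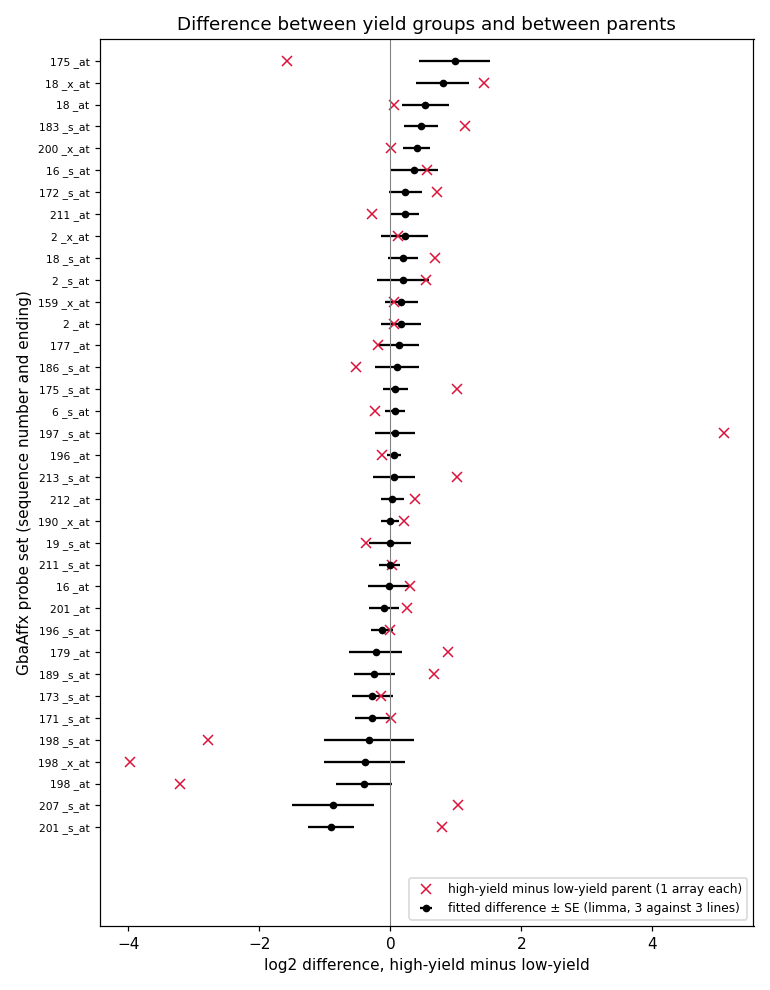
Log2 difference, high-yield minus low-yield, for the 36 GbaAffx probe sets (rows, by sequence number and ending). Black points are the fitted difference of 3 high-yield and 3 low-yield lines with its SE, and red crosses the difference between the single parent arrays. The lines lie between -0.90 and 0.98, while the crosses of sequences 197 and 198 lie far outside that range.

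The yield groups were also set against the parents, since the contrasts share no array. Among the 10 members at least 2-fold apart between the parents, the yield group means were in the order of the parents for 8, where they were so for 63.2% of all probe sets as far apart. This count rested on single lines, and without LY3 it was 3 of 10 (46.3% of all). Without HY2 it was 5 of 10 (57.8% of all). It also rested on the normalization, with 5 of 17 on the deposited values (34.1% of all). Of the 8, 3 are the probe sets of sequence 198, in which LY3 carries the higher group mean. Their log2 differences between the lines, -0.41 ± 0.43, -0.33 ± 0.69 and -0.39 ± 0.62 (SE), were no larger than their errors.

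The spread over the 6 lines was like that of the array, with a median SD of 0.33 on the log2 scale against 0.32 over all probe sets. A range of at least 4-fold over the lines was found for 4 members (11.1%), where 4.79% of all had one. They were GbaAffx.207.1.S1_s_at with a log2 range of 3.14, both GbaAffx.198.1.S1_x_at and its _s_at companion with 2.78 and 2.82, and GbaAffx.175.1.S1_at with 2.43.

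Likeness of pattern was measured by Pearson r over the 8 arrays. Closest to GbaAffx.197.1.S1_s_at among the other 35 were GbaAffx.190.1.S1_x_at and GbaAffx.175.1.S1_s_at, with r = 0.97 each. The first takes 1 value on 7 arrays through the normalization, and the second had r = 0.83 over the 6 lines. The next was GbaAffx.183.1.S1_s_at, with r = 0.86 over 8 arrays and 0.53 over the lines. By ranks (Spearman) over the 8 arrays these 3 members had 0.58, 0.79 and 0.67, in the order named. The single low Giza75 value of GbaAffx.197.1.S1_s_at weighs heavily in Pearson r. By Pearson r, 16, 31 and 325 other probe sets of the array were at least as like GbaAffx.197.1.S1_s_at as these 3 members, in that order. Closest to GbaAffx.198.1.S1_x_at were its own companions, with r = 0.93 for _at and 0.92 for _s_at, which 160 and 199 other probe sets reached. After them came GbaAffx.175.1.S1_at with r = 0.70, a likeness that 9.51% of all probe sets reached.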

How the data were processed

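The authors deposited 1 intensity per probe set and array, on a linear scale. GCOS and MAS5 are listed, per the submitters' processing notes, with no version; a scaling target is not given in the sources used here. The table holds 24132 rows, of which 103 Affymetrix control rows were left out and 52 reporter rows were kept. All 8 columns were used, and at most 1.20% of values were equal between any pair of arrays.

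The 24029 remaining rows were quantile-normalized and transformed as log2(value + 16). The yield groups were compared with limma 3.58.1 in R 4.3.3 (lmFit, then eBayes with an intensity trend) over all rows without a filter, p-values adjusted by Benjamini-Hochberg and called under 0.05. The script was tested on simulated data. The parents were compared without a test. Tables and plots were made with pandas 2.3.3 and matplotlib 3.10.9. Members follow from the identifier alone, but this set and the lists were chosen with earlier results of these data known.

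Identifiers printed are, by rule, the 2 higher and 2 lower members with the largest parental differences at a signal of 64 or more, the 2 higher and 2 lower by p between the yield groups, preferring groups that do not overlap, and the 5 of highest mean level. Any other identifier printed was chosen after its values were seen. No probe sequences were used here, and gene lists could not be matched. Alternatives were pseudocounts of 1 and 64, other scalings, leaving out the lowest 40%, shared probe sets or single lines, no trend, a block, and 1 value per sequence. The number of arrays limits the precision.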

Additional observations from a re-analysis of the deposited data

Results flagged for a closer look

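Each of the 36 probe sets was examined for a line far from the other 5 among the 6 BILs, on the log2 scale. The gap to the nearest line, divided by the range, passed Dixon's 95% critical value in 4. Chance marks about 1 in 20 groups of normally distributed values, and companions of a sequence are not independent. The share of all probe sets that would pass was not computed, so an excess among the members cannot be read from this count.

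GbaAffx.198.1.S1_x_at was at 132 in LY3 and 5.66 to 26.2 in the other lines. GbaAffx.2.1.S1_at was at 351 in the same line and 537 to 646 in the others. GbaAffx.173.1.S1_s_at was at 337 in HY3 and 562 to 678 in the others. GbaAffx.207.1.S1_s_at was at 130.3 in LY2 and 0.55 to 17.7 in the others. The cause of these values was not tested.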

How the results depend on the processing

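In limma, 0 members passed the adjusted threshold under each alternative run (lowest adjusted p 0.509 to 1). This includes the fits without single lines, 0 each time, in which 0 to 5 had an unadjusted p under 0.05 (1.68% to 9.61% of all probe sets). With the line number as a replicate block 0 passed as well and 3 had an unadjusted p under 0.05 (4.41% of all probe sets). Deviations of equally numbered lines correlated with r = -0.19, 0.16 and 0.46. Whether equally numbered lines belong together was not tested. The parental median was -0.49 on the deposited values (-0.20 over all probe sets), with 13 members 2-fold lower, and 10 lower with median centring. Among the 11 members not ending in _s_at or _x_at, 2 were higher and 0 lower. With 1 value per sequence, an alternative chosen after seeing the data, 1 of 25 was higher and 4 were lower. For 1 value per sequence the share over all probe sets was not computed. The level of those 11 had a median percentile of 51.9. The share of members nearer SG747 was 64.7% in HY1 and HY3 and 29.4% in LY3 on the deposited values, and 35.7% in LY3 with median centring. It was 100% in HY2, LY1 and LY2 with the 4-fold limit (4 members, 3 of them from sequence 198). Over all 413 probe sets as far apart it was 82.3%, 68.3% and 88.6% in these lines. LY3 had 50% at that limit, against 51.8% of all. The members' share was also 100% in HY2, LY1 and LY2 without shared probe sets (2 members). It was 100% in HY3 with the 4-fold limit (88.1% of all) and with a pseudocount of 64. The same held in LY2 with 1 value per sequence and in LY3 without shared probe sets, where HY3 had 50%. For the settings other than the 4-fold limit, shares over all probe sets are not given here. The share of yield group means in the order of the parents was 100% with the 4-fold limit (4 members). It was 78.9% over all 413 probe sets as far apart. Of these 4 members, 3 are the probe sets of sequence 198, in which LY3 carries the higher group mean. The other, GbaAffx.197.1.S1_s_at, had a log2 difference between the lines of only 0.07 ± 0.31 (SE). The share of members in the order of the parents was 29.4% on the deposited values and 30.0% to 80.0% without single lines. Some settings hold fewer members, and the cause of these shifts was not tested.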
